A study of Mus musculus with 60 samples.

Results

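Fetal brains of mice labelled with a human PON1 transgene of the R192 form (tgHuPON1R192, R-tg) were compared with those of mice labelled with the Q192 form (tgHuPON1Q192, Q-tg). The comparison holds 30 of the 60 arrays of the study, 15 reassigned to R-tg and 15 to Q-tg. Each genotype has 5 arrays at each of 3 doses of chlorpyrifos oxon (CPO), namely none, 0.75 mg/kg/d and 0.85 mg/kg/d. The dams received CPO for 12 days, on gestational days 6 to 17. Brains of the fetuses were taken on gestational day 18. Total RNA from the fetal brains of a dam was pooled and put on 1 Affymetrix Mouse Gene 1.0 ST array, so that the dam is the replicate. All genotypes are labelled with the strain background B6.129, and the promoter of the transgenes and the mouse Pon1 alleles that the transgenic lines carry are not given in the sources used here. Dams were drawn at random after those whose brain acetylcholinesterase activity lay more than 1.5 SD from the mean of their group had been left out. The remaining arrays are 15 wild type (WT) at the same 3 doses and 15 PON1-knockout (KO) without CPO or with 0.5 or 0.75 mg/kg/d.

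The genotype and dose of each array rest on an inferred order and not on the deposited labels. The 60 samples were numbered by group label and replicate, these numbers were sorted as text with the character _ appended, and the sorted labels were given to the columns of the deposited table from left to right. Mouse Pon1 was the reason to look for another order. Under the deposited labels arrays labelled KO ran from 4.97 to 10.14 on the log2 scale. Under the inferred order KO ran from 4.84 to 5.67, WT from 9.72 to 10.14, Q-tg from 9.83 to 10.05 and R-tg from 9.74 to 10.12. Since those values led to the order, they describe it and are no evidence for it, and Pon1 does not separate R-tg from Q-tg. How far the mouse probes of Pon1 read the human transcript was not tested. Of the 15 arrays reassigned to R-tg, 2 are deposited as R-tg, 6 as Q-tg and 7 as WT. Of the 15 reassigned to Q-tg, 6 are deposited as Q-tg, 5 as R-tg, 2 as WT and 2 as KO. Every value that follows is conditional on this order, and R-tg, Q-tg and WT below mean the reassigned arrays.

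PON1 is an enzyme made mainly by the liver and carried in blood on high-density lipoprotein (HDL). It hydrolyses organophosphate oxons such as CPO, the active metabolite of the insecticide chlorpyrifos, and the R192 form hydrolyses CPO more efficiently than the Q192 form. CPO inhibits acetylcholinesterase, which ends signalling at cholinergic synapses, and it also binds other serine hydrolases. The comparison asks whether the human PON1 form carried by the mice goes with a difference in fetal brain gene expression, at each dose and over all of them.

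With dose as a factor, 1314 of 21789 transcript clusters (the array's units, usually 1 per gene) differed between R-tg and Q-tg at a limma adjusted p below 0.05, which is 6.03%. Of these, 927 were higher in R-tg (4.25% of those tested) and 387 were lower (1.78%). The higher ones made up 70.5% of the calls, and 82.9% of 2439 calls once each array was centred on its median. They name 890 genes that were higher and 376 that were lower, with 5 genes in both directions. The differences were small. The median size was 0.11 log2 units among the higher and 0.16 among the lower transcript clusters, and the largest were 0.30 and 0.61. For no transcript cluster did all 15 arrays of a genotype lie outside the range of the other (0 of 21789, 0%). Median log2 differences over all 21789 were near zero (0.0061). Around the threshold, Jak1, a cytokine receptor kinase, lay just inside (0.06, adjusted p = 0.0497), and Vps33a, a vesicle transport gene, just outside (0.09, adjusted p = 0.05001).

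The count of called transcript clusters depended strongly on single arrays and on the labels. Under the labels as deposited, the same fit on 15 arrays labelled R-tg and 15 labelled Q-tg called 0, with 400 at an unadjusted p below 0.05. The inferred order gave 5716 at that unadjusted level. Leaving out 1 array at a time gave from 639 to 3585 calls. The count moved by over 1.5 times without each of 11 arrays, taken 1 at a time. It fell without Q-tg dose 0 replicate 3 (803) or 4 (780), Q-tg 0.75 replicate 3 (782), Q-tg 0.85 replicate 2 (650) or 4 (742), R-tg dose 0 replicate 5 (639), R-tg 0.75 replicate 1 (863) or 2 (832) and R-tg 0.85 replicate 4 (660). It rose without Q-tg 0.85 replicate 3 (3585) or R-tg 0.85 replicate 2 (2208).

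**Figure D1:**
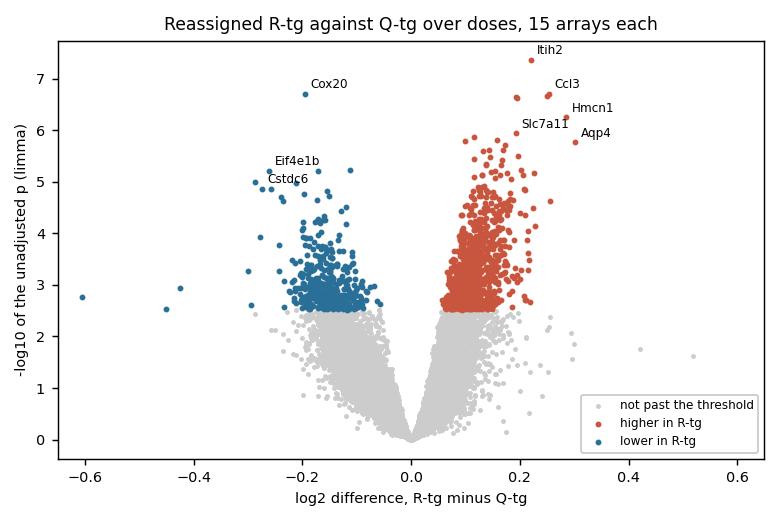
Each point is 1 of the 21789 transcript clusters, with the log2 difference R-tg minus Q-tg on the x axis and the -log10 of the unadjusted limma p on the y axis. The 927 called higher (red) and 387 called lower (blue) in R-tg mostly lie within 0.3 log2 units of 0, and 1 transcript cluster (Xist) lies beyond the x axis.

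The direction of the difference followed the level of the signal. Dim is used here for a mean signal below 6.54, the level under which 95% of the 1035 transcript clusters of olfactory receptors lay. Only 28 of the 927 higher transcript clusters (3.02%) were dim, against 148 of the 387 lower ones (38.2%) and 28.4% of all. Among the 5448 transcript clusters of lowest mean signal 19 were higher and 125 lower, and among the 5447 of highest mean signal 393 were higher and 25 lower. The lower quartile of an array's signal ran from 5.92 to 6.23 in R-tg (mean 6.07 ± 0.081, SD, n = 15) and from 6.02 to 6.23 in Q-tg (6.12 ± 0.055, SD, n = 15). The lowest values were those of R-tg dose 0 replicate 5 and R-tg 0.85 replicate 4, and the genotypes overlapped. With this quartile as a covariate 454 were called (272 higher, 182 lower), 279 of them among the 1314. Without the 4 arrays of extreme lower quartile 123 were called (79 higher, 44 lower), 122 of them among the 1314. The 4 arrays were left out after seeing the data. With the summed signal of 16 skeletal muscle markers as a covariate 27 were called (17 higher, 10 lower). Only 12 of these 27 were among the 1314. The summed muscle signal was lowest on R-tg dose 0 replicate 5 (10.73) and R-tg 0.85 replicate 4 (10.76), as was the lower quartile. Both were highest on Q-tg 0.85 replicate 2 (11.16 for muscle). How far the 2 covariates measure the same property of an array was not tested. The muscle covariate was also chosen after seeing the data. All 1314 kept their direction under each, which their choice on these same arrays favours.

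Among the 15 genes of smallest p that were higher in R-tg, several act at the surface of cells or in the extracellular matrix. Itih2, a heavy chain of the inter-alpha-trypsin inhibitors that binds hyaluronan, ran from 7.66 to 7.96 in R-tg (median 7.79) and from 7.46 to 7.75 in Q-tg (median 7.57). In 11 of 15 R-tg arrays it exceeded every Q-tg array. Its log2 difference was 0.22 (SE 0.031, adjusted p = 0.000848). Hmcn1, which encodes the matrix protein hemicentin, ran from 6.66 to 7.18 in R-tg (median 6.97) and from 6.45 to 6.97 in Q-tg (median 6.70), with all but 1 of the 15 R-tg arrays above the Q-tg median. The difference was 0.29 (SE 0.045, adjusted p = 0.00172), and of the 77 transcript clusters with its name 21 were called higher and 0 lower. Ddr2, a receptor tyrosine kinase for collagen, ran from 7.84 to 8.14 in R-tg (median 7.93) and from 7.62 to 7.91 in Q-tg (median 7.78), a difference of 0.19 (SE 0.029, adjusted p = 0.000848). The ranges of these 3 genes overlapped between the genotypes.

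Genes of transport and of ion balance formed another part of these 15. Aqp4, the water channel of astrocytes, had the largest difference among the higher calls. It ran from 8.41 to 9.00 in R-tg (median 8.78) and from 8.24 to 8.78 in Q-tg (median 8.42), and 7 of 15 R-tg arrays lay above every Q-tg array. The difference was 0.30 (SE 0.051, adjusted p = 0.00306). Slc7a11, the cystine-glutamate exchanger, ran from 8.66 to 9.06 in R-tg (median 8.88) and from 8.58 to 8.94 in Q-tg (median 8.67), and the ranges overlapped. It differed by 0.19 (SE 0.032, adjusted p = 0.00306). Slc13a3, a sodium-coupled dicarboxylate transporter, ran from 8.24 to 8.51 in R-tg (median 8.33) and from 7.95 to 8.33 in Q-tg (median 8.14), and 8 of 15 R-tg arrays exceeded every Q-tg array. Its difference was 0.19 (SE 0.029, adjusted p = 0.000848). Slc22a23, an organic ion transporter by family, had a narrow spread, from 10.06 to 10.18 in R-tg (median 10.13) and from 9.99 to 10.09 in Q-tg (median 10.02), and a small difference of 0.10 (SE 0.017, adjusted p = 0.00306).

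Genes of neuronal excitability and signalling were also among them. Kcna2, a voltage-gated potassium channel of axons, ran from 7.17 to 7.48 in R-tg (median 7.32) and from 6.75 to 7.25 in Q-tg (median 7.06). Of 15 R-tg arrays, 12 exceeded every Q-tg array and 15 exceeded the Q-tg median. Its difference was 0.25 (SE 0.038, adjusted p = 0.000848), and both of its transcript clusters were called higher. Atp2b2, a plasma membrane calcium pump, differed by 0.14 (SE 0.025, adjusted p = 0.00349). Adcy1, a calcium-stimulated adenylyl cyclase of neurons, differed by 0.16 (SE 0.027, adjusted p = 0.00306). Dock3, an activator of the GTPase Rac, differed by 0.11 (SE 0.019, adjusted p = 0.00306). Ccl3, a chemokine made by microglia and macrophages, ran from 7.05 to 7.39 in R-tg (median 7.20) and from 6.72 to 7.11 in Q-tg (median 6.93), with 10 of 15 R-tg arrays above every Q-tg array. It differed by 0.25 (SE 0.038, adjusted p = 0.000848). The remaining genes were the zinc finger gene Zbtb34 (0.17), Uprt, a homologue of uracil phosphoribosyltransferase (0.17), and Ggact, which acts on gamma-glutamylamines (0.13). All 15 stayed past the threshold when any 1 of the 30 arrays was left out, which their choice by smallest p on these same arrays favours. With the muscle covariate only Itih2, Ccl3, Kcna2, Ddr2, Slc13a3 and Slc22a23 of the 15 stayed past it.

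**Figure D2:**
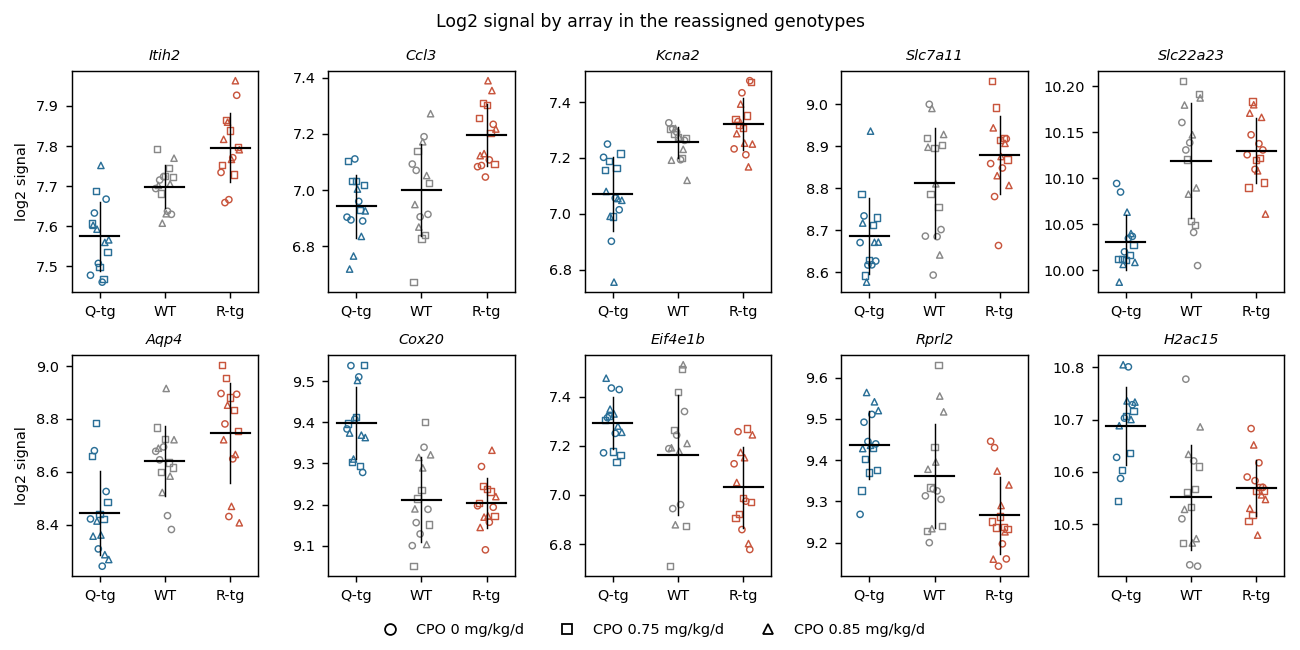
Log2 signal of 10 of the named genes on each array of the reassigned Q-tg, WT and R-tg (15 arrays each), with marker shapes for CPO dose, a horizontal line for the mean and a vertical line for 1 SD. Every gene overlaps between Q-tg and R-tg. The WT mean lies nearer the R-tg mean than the Q-tg mean for Slc22a23, Cox20 and H2ac15, among others. Over all 1314 calls it lies nearer the R-tg mean in 672.

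The 15 genes of smallest p that were lower in R-tg held genes of muscle, hair and histones beside transcription factors. Cox20, an assembly factor of cytochrome c oxidase, ran from 9.09 to 9.33 in R-tg (median 9.20) and from 9.28 to 9.54 in Q-tg (median 9.38). Of 15 R-tg arrays, 13 lay below every Q-tg array. The log2 difference was -0.19 (SE 0.029, adjusted p = 0.000848). Tal1, a transcription factor of blood and of some neurons, ran from 7.80 to 8.03 in R-tg (median 7.91) and from 7.92 to 8.11 in Q-tg (median 8.05), with 8 of 15 R-tg arrays below every Q-tg array. It differed by -0.11 (SE 0.021, adjusted p = 0.00466). Eif4e1b, an oocyte form of the cap-binding protein, ran from 6.78 to 7.27 in R-tg (median 6.99) and from 7.13 to 7.48 in Q-tg (median 7.31). It differed by -0.26 (SE 0.048, adjusted p = 0.00466), and its other transcript cluster (-0.21) was not called. The ranges of all 3 overlapped. The developmental transcription factors Gbx1 (-0.16) and Foxe1 (-0.17) were lower as well.

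Several of these 15 genes have weak signal or near copies in the genome. Trdn, which encodes triadin of the muscle sarcoplasmic reticulum, ran from 6.54 to 6.97 in R-tg (median 6.83) and from 6.88 to 7.19 in Q-tg (median 7.00). Its difference was -0.21 (SE 0.040, adjusted p = 0.00575). Of 19 transcript clusters with its name, 4 were called lower and 0 higher, and 1 of them had the largest difference of all calls (-0.61). Cstdc6, a cystatin gene (-0.28), and Krtap19-3, a hair keratin-associated gene (-0.24), were dim, as were Dnah10, an axonemal dynein (-0.20), and H2bc1, a histone gene (-0.16). Rprl2, related to the RNA of ribonuclease P (-0.17), and the zinc finger gene Zfp971 (-0.26) belong to families of similar sequences, so their signal may be shared with copies. Proser2 was lower by a similar amount (-0.13). All 15 stayed past the threshold when any 1 array was left out, which their choice by smallest p on these same arrays favours. With the muscle covariate only Cox20 and Zfp971 of the 15 stayed past it.

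The 15 lower genes also include histone genes. H2ac15, an H2A gene, ran from 10.48 to 10.68 in R-tg (median 10.56) and from 10.54 to 10.80 in Q-tg (median 10.70), a difference of -0.12 (SE 0.024, adjusted p = 0.00743). H4f16, an H4 gene, ran from 8.70 to 9.04 in R-tg (median 8.83) and from 8.92 to 9.08 in Q-tg (median 9.02), a difference of -0.15 (SE 0.030, adjusted p = 0.00642). Of 31 measured histone genes, a group chosen after the values were seen, 10 were called lower, against 1.78% of all transcript clusters, and 0 higher, and 29 had a negative difference with a median of -0.10. Since called genes prompted the choice of this group, its count is a description. The count was 4 without the 4 arrays of extreme lower quartile, 8 when the lower quartile was a covariate, 0 with the muscle covariate, 0 under the deposited labels and 8 to 14 without single arrays. Replication-dependent histone mRNAs mostly lack a poly(A) tail, and their genes are near-identical copies, so single members are uncertain. The cell cycle list had 0 of 25 called, 17 negative differences and a median of -0.02. Negative differences numbered 22 (median -0.05) with the lower quartile as a covariate and 24 (median -0.07) with the muscle covariate, with 0 called in each. After quantile normalization 1 was called lower. Under the deposited labels 8 were negative.

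Read dose by dose with 5 arrays against 5, few genes passed. At dose 0 limma called 0 (0%; 3604 at an unadjusted p below 0.05, smallest adjusted p 0.187). At 0.75 mg/kg/d it called 0 (0%; 1822 unadjusted), with Slc13a3 the nearest (0.28, adjusted p = 0.0567). At 0.85 mg/kg/d it called 1 (0.00459%; 1725 unadjusted). That gene was Ccl3, with a log2 difference of 0.39 (SE 0.060, adjusted p = 0.00833). The call was lost without Q-tg 0.85 replicate 1 or 2 or without R-tg 0.85 replicate 3 or 4 (0 called each), and 39 were called without Q-tg 0.85 replicate 3. At dose 0, 16 were called without R-tg dose 0 replicate 2.

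A dependence of the R-tg minus Q-tg difference on dose was not detected at this number of arrays. The moderated F test of the interaction of genotype and dose called 0 of 21789 (0%), with 656 at an unadjusted p below 0.05. For Ccl3 the differences were 0.16 at dose 0, 0.21 at 0.75 and 0.39 at 0.85 mg/kg/d, and its interaction did not pass. For Aqp4 they were 0.29, 0.33 and 0.29. For Kcna2 they were 0.25, 0.21 and 0.28. Of the 1314 called transcript clusters 1311 had the same sign at all 3 doses, as did 11108 of all 21789; since the called ones were chosen on the mean over doses, their share is a description.

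The 3 doses use different dams, so each gives its own estimate under the inferred order. Across the 21789 transcript clusters, which are not independent replicates, the difference at dose 0 correlated with that at 0.75 at r = 0.45 and with that at 0.85 at r = 0.41. The differences at 0.75 and at 0.85 mg/kg/d correlated at 0.44. Under the deposited labels the same correlations were -0.20, -0.13 and 0.05. Genes called from doses 0 and 0.75 alone (1088) had the same sign at the held-out 0.85 in 90.3%, against 69.6% of all, and 22.2% also had an unadjusted p below 0.05 there, against 6.98% of all. Genes called from 0.75 and 0.85 (20) had the same sign at dose 0 in 100%, against 69.7% of all. From doses 0 and 0.85 limma called 0, so dose 0.75 had no such list.

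**Figure D3:**
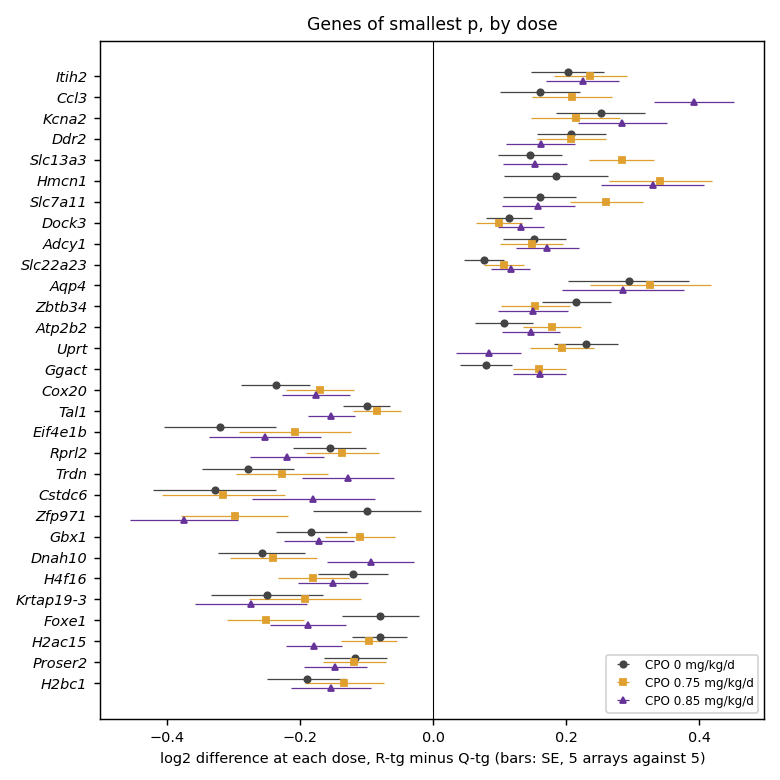
Log2 differences R-tg minus Q-tg at each CPO dose for the 15 higher and 15 lower genes of smallest p, with SE bars from 5 arrays against 5. All points of the higher genes lie right of 0 and all points of the lower genes left of it, as the choice of genes by their mean favours, and Ccl3 is farthest from 0 at 0.85 mg/kg/d.

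The cholinesterases are the direct targets of CPO. Ache, acetylcholinesterase, ran from 8.75 to 9.13 in R-tg (median 8.96) and from 8.65 to 8.98 in Q-tg (median 8.85), and 12 of 15 R-tg arrays lay above the Q-tg median. Its difference was 0.13 (SE 0.037, adjusted p = 0.0386), higher in R-tg, with 0.10 at dose 0, 0.24 at 0.75 and 0.04 at 0.85 mg/kg/d. The call held without 17 of the 30 arrays taken 1 at a time and ended with the lower quartile as a covariate (0.10, adjusted p = 0.157). Bche, butyrylcholinesterase, ran from 6.62 to 7.10 in R-tg (median 6.79) and from 6.53 to 6.91 in Q-tg (median 6.68). Its difference of 0.14 (SE 0.045, adjusted p = 0.0564) did not pass. The RNA level is not the enzyme activity on which dams were selected.

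Of 21 measured genes of cholinesterases and the cholinergic synapse, 2 were called higher and 1 lower, with a median of 0.01. Over all transcript clusters 4.25% were higher and 1.78% lower. Besides Ache, the muscarinic receptor gene Chrm3 was higher (0.08, SE 0.022, adjusted p = 0.0385). Colq, the collagen tail that anchors acetylcholinesterase at the neuromuscular junction, was lower (-0.18, SE 0.046, adjusted p = 0.0231). Chrna5, a nicotinic receptor subunit, had a difference of 0.13 and did not pass (adjusted p = 0.0621). No member was called without the 4 arrays of extreme lower quartile or with either covariate (0 of 21 each). The number called higher was 0 to 7 without single arrays.

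Other serine hydrolases that organophosphates bind had 5 of 26 called higher, against 4.25% of all transcript clusters, and 0 lower, with a median of 0.04. These were Nceh1, a cholesterol ester hydrolase (0.14, SE 0.037, adjusted p = 0.0222), Abhd3 (0.12), the peptidase Dpp4 (0.11), fatty acid synthase Fasn (0.10) and the thioesterase Ppt1 (0.07). Ces1c, a carboxylesterase, was dim and did not pass (-0.12, adjusted p = 0.101). The count was 0 without the 4 arrays of extreme lower quartile, 0 when the lower quartile was a covariate, 0 with the muscle covariate and 4 to 9 without single arrays.

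The paraoxonases themselves did not pass. Pon1 differed by 0.05 (SE 0.029, adjusted p = 0.282), Pon2 by 0.09 (adjusted p = 0.106) and Pon3 by 0.10 (adjusted p = 0.151). None of 20 measured neighbours of Pon1 on the chromosome was called (0 of 20, median -0.01). Among 17 genes of HDL and lipoproteins, the particles that carry PON1, 4 were called higher (4.25% over all) and 0 lower, with a median of -0.01. Apoe, the main apolipoprotein of the brain, ran from 11.08 to 11.44 in R-tg (median 11.33) and from 11.01 to 11.42 in Q-tg (median 11.13), a difference of 0.16 (SE 0.035, adjusted p = 0.0127). Lrp1, a receptor for Apoe, differed by 0.15 (SE 0.031, adjusted p = 0.00781). Scarb1, the HDL receptor (0.13), and Abca1, a cholesterol exporter (0.10), were the others. The count was 0 without the 4 arrays of extreme lower quartile, 3 when the lower quartile was a covariate, 0 with the muscle covariate and 4 to 7 without single arrays.

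Of the 34 lists, the astrocyte markers had the highest share of members called. Of 12 measured, 8 were higher in R-tg and 0 lower, with a median of 0.11, against 4.25% higher and a median of 0.0061 over all transcript clusters. Agt, angiotensinogen, ran from 7.95 to 8.61 in R-tg (median 8.27) and from 7.68 to 8.23 in Q-tg (median 8.05), a difference of 0.22 (SE 0.052, adjusted p = 0.0168). Gfap, the intermediate filament of astrocytes, ran from 7.43 to 7.92 in R-tg (median 7.71) and from 7.20 to 7.70 in Q-tg (median 7.50), a difference of 0.18 (SE 0.037, adjusted p = 0.00743). Aldoc (0.15), the bicarbonate transporter Slc4a4 (0.14), the glutamate transporter Slc1a2 (0.11), Aldh1l1 (0.11) and the gap junction gene Gja1 (0.10) were the others besides Aqp4. Both ranges overlapped for each gene. The count was 2 without the 4 arrays of extreme lower quartile, 6 when the lower quartile was a covariate, 1 with the muscle covariate and 7 to 9 without single arrays. In bulk samples, fewer cells of a type and less RNA per cell cannot be told apart.

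The markers were also summed on the linear scale, as a description. The log2 of the summed astrocyte signal ran from 12.72 to 12.99 in R-tg (median 12.92) and from 12.69 to 12.85 in Q-tg (median 12.78), and WT lay between them with a median of 12.87. The lowest values in R-tg came from 2 arrays at 0.85 mg/kg/d and 1 at dose 0. The summed neuron markers, all of them above the dim level, ran from 15.16 to 15.26 in R-tg (median 15.21) and from 15.16 to 15.23 in Q-tg (median 15.18). Over all transcript clusters 4.25% were called higher and 1.78% lower. Snap25 was the 1 of 12 neuron markers called, and its call ended with the muscle covariate (0.09, limma adjusted p = 0.166). Slc1a3, a transporter shared by radial glia and astrocytes, was higher (0.10, SE 0.028, adjusted p = 0.0307), while Neurog2, a transcription factor of neurogenic progenitors, was lower (-0.16, SE 0.038, adjusted p = 0.0156). No other progenitor marker of 12 was called.

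Markers of other non-neuronal cells were also higher in part. Of 16 vascular and pericyte markers 6 were called higher, against 4.25% over all, and 0 lower (median 0.05), among them Slco1a4 (0.15), Pdgfrb (0.10) and Cdh5 (0.09). That count was 0 without the 4 arrays of extreme lower quartile, 0 when the lower quartile was a covariate, 0 with the muscle covariate and 0 to 7 without single arrays. It moved by over 1.5 times without each of 21 of the 30 arrays. Of 12 microglia markers 4 were called higher and 0 lower (median 0.07), namely Fcrls (0.18), the complement genes C1qb (0.15) and C1qc (0.12) and the receptor gene Csf1r (0.12). It was 0 without the 4 arrays of extreme lower quartile, 0 when the lower quartile was a covariate, 0 with the muscle covariate and 2 to 5 without single arrays. Of 11 oligodendrocyte lineage markers 2 were called, Gpr17 (0.16) and Pdgfra (0.14), which mark its precursors, both higher (4.25% over all). Their count was 0 without the 4 arrays of extreme lower quartile, 1 when the lower quartile was a covariate, 0 with the muscle covariate and 2 to 4 without single arrays. Pdgfra ran from 9.26 to 9.51 in R-tg (median 9.43) and from 9.20 to 9.44 in Q-tg (median 9.27), a difference of 0.14 (SE 0.027, adjusted p = 0.00717). Kcnj13, a potassium channel of choroid plexus, was higher (0.19, SE 0.038, adjusted p = 0.00676), as the 1 of 11 choroid plexus markers called.

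Meninges, the membranes around the brain, can stay on a dissected brain. Of 12 meninges markers 4 were called higher, against 4.25% of all transcript clusters, and 0 lower, and all 12 had a positive difference with a median of 0.11. Aldh1a2, which makes retinoic acid in meninges, ran from 8.08 to 8.51 in R-tg (median 8.33) and from 7.95 to 8.36 in Q-tg (median 8.15), a difference of 0.15 (SE 0.038, adjusted p = 0.0224). Dcn (0.11), Slc22a6 (0.11) and Vtn (0.09), which is also on the vascular list, were the others called. Col1a1 and Col1a2, collagen genes, had differences of 0.20 and 0.21 and did not pass. The R-tg dose 0 replicate 4 stood apart in both, at 10.66 and 10.21 where the next highest arrays of its group were at 8.79 and 8.78. The summed meninges signal was 12.81 on that array and at most 12.38 on any other R-tg array. Without it the count of meninges markers was 4 again, and it was 0 without the 4 arrays of extreme lower quartile, 0 when the lower quartile was a covariate, 0 with the muscle covariate and 1 to 6 without single arrays. It moved by over 1.5 times without each of 13 arrays.

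Skeletal muscle markers went the other way. Of 16 measured, 5 were called lower in R-tg and 0 higher, with a median of -0.11, against 1.78% lower over all. Tnni2, a troponin of fast muscle, ran from 6.90 to 7.77 in R-tg (median 7.45) and from 7.43 to 7.86 in Q-tg (median 7.63), a difference of -0.21 (SE 0.058, adjusted p = 0.0333). Tnnt3 (-0.17), Des (-0.15), Acta1 (-0.15) and Myh8 (-0.15) were the others, and 6 of the 16 were dim. The log2 of the summed muscle signal ran from 10.73 to 11.04 in R-tg (median 10.94) and from 10.83 to 11.16 in Q-tg (median 11.04). Trdn and Colq, described above, are muscle genes too, but neither is among the called markers of this list. Trdn was described through its transcript cluster of smallest p, whereas a list uses the brightest of each gene. Its call is therefore no further support for the list. The count was 0 without the 4 arrays of extreme lower quartile, 0 when the lower quartile was a covariate and 3 to 9 without single arrays. The 27 transcript clusters called with the summed muscle signal as a covariate include those of Itih2 (0.16, adjusted p = 0.0312), Ccl3 (0.21, adjusted p = 0.0472), Kcna2 (0.28, adjusted p = 0.00453) and Cox20 (-0.23, adjusted p = 0.00217), but not Aqp4 (0.29, adjusted p = 0.0526). What part adjoining tissue has in these or the other calls was not tested.

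**Figure D4:**
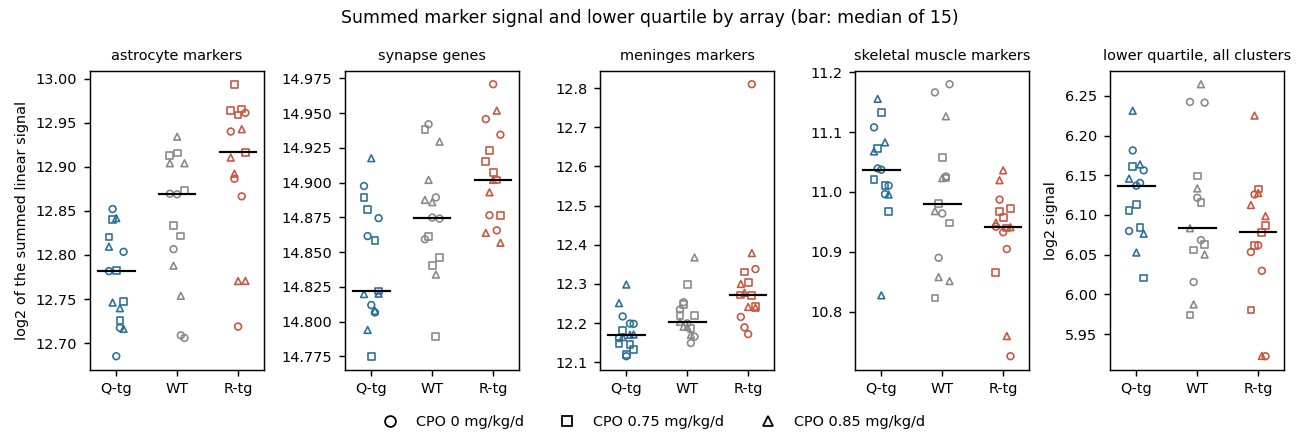
Log2 of the summed linear signal of astrocyte, synapse, meninges and skeletal muscle genes, and the lower quartile of log2 signal over all transcript clusters, on each array of Q-tg, WT and R-tg (15 each). The R-tg medians are highest for astrocyte, synapse and meninges genes and lowest for muscle, WT lies between Q-tg and R-tg in these 4, and all genotypes overlap.

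Part of the synapse genes were higher in R-tg, by small amounts. Of 25 measured, 8 were called higher, against 4.25% of all transcript clusters, and 0 lower, and 23 had a positive difference, with a median of 0.08. Shank1, a scaffold of excitatory synapses, ran from 9.41 to 9.62 in R-tg (median 9.48) and from 9.10 to 9.49 in Q-tg (median 9.34), a difference of 0.16 (SE 0.032, adjusted p = 0.0067). Bsn, a presynaptic scaffold, ran from 8.40 to 8.67 in R-tg (median 8.55) and from 8.20 to 8.56 in Q-tg (median 8.42), a difference of 0.13 (SE 0.028, adjusted p = 0.0127). Rims1 (0.10), the glutamate receptor genes Grin2b (0.10) and Gria1 (0.08), the vesicle genes Syp (0.09) and Snap25 (0.09) and the scaffold Dlg4 (0.08) were the others. The count was 1 without the 4 arrays of extreme lower quartile, 3 when the lower quartile was a covariate, 0 with the muscle covariate and 3 to 18 without single arrays, and 11 arrays moved it by over 1.5 times. Among 33 axon guidance genes 2 were called higher, near the share over all, namely Slit1 (0.08) and Sema5a (0.08). That count was 0 after quantile normalization, 0 without the 4 arrays of extreme lower quartile, 0 when the lower quartile was a covariate, 0 with the muscle covariate and 0 to 6 without single arrays.

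Of 28 xenobiotic metabolism genes 5 were called higher, against 4.25% of all transcript clusters, and 0 lower (median 0.05), namely Gstm1 (0.12), Sult1a1 (0.11), Fmo1 (0.11), Abcb1a (0.10) and Arnt (0.08). That count was 0 without the 4 arrays of extreme lower quartile, 1 when the lower quartile was a covariate, 0 with the muscle covariate and 1 to 7 without single arrays, and 17 arrays moved it by over 1.5 times. The counts of stress genes stand beside the same shares over all transcript clusters (4.25% higher, 1.78% lower). Slc7a11 was the 1 of 20 NRF2 targets called. Of 20 integrated stress response genes Sesn2 (0.12) and Slc7a5 (0.09) were higher. Ifitm3 (0.19) was the 1 of 19 antigen presentation and interferon genes called, and Sdha (0.07) the 1 of 26 respiratory chain genes. Without single arrays the number called higher was 1 to 5 for NRF2 targets and 2 to 3 for the integrated stress response. It was 0 to 4 for antigen presentation and interferon and 0 to 3 for the respiratory chain, where 26 arrays moved it by over 1.5 times. No gene was called among 13 heat shock, 17 immediate early or 26 ribosomal protein genes (0 in each).

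Counts of genes that mark brain regions stand beside 4.25% called higher and 1.78% called lower over all transcript clusters. Of 17 hindbrain and spinal cord genes 1 was called, the dim Hoxc8 (-0.22, SE 0.064, adjusted p = 0.0421). That call held without 16 of the 30 arrays taken 1 at a time. It ended with the lower quartile as a covariate (-0.12, limma adjusted p = 0.235). Hoxa5 ran from 5.78 to 8.28 in R-tg (median 7.68) and from 5.96 to 7.84 in Q-tg (median 6.83) and had a difference of 0.52 that did not pass (adjusted p = 0.13). The inhibitory glycine transporter gene Slc6a5 had 0.42 (adjusted p = 0.109). No gene was called among 13 cortex, 13 GABA neuron or 12 cerebellum markers (0 in each), but 2 cortex markers were called lower after quantile normalization or when the lower quartile was a covariate. Pituitary markers had 0 of 11 called, with 10 negative differences, erythroid markers 0 of 10, and markers of bone, cartilage and nasal mucosa 0 of 14. Gh, growth hormone of the pituitary, ran from 6.51 to 10.73 in R-tg (median 6.83) and from 6.71 to 10.26 in Q-tg (median 6.94); in each genotype the median lay far below the highest array. Xist, expressed from the inactive X in females, differed by -1.81 and did not pass (adjusted p = 0.148), nor did the other sex-linked genes (0 of 4 called).

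**Figure D5:**
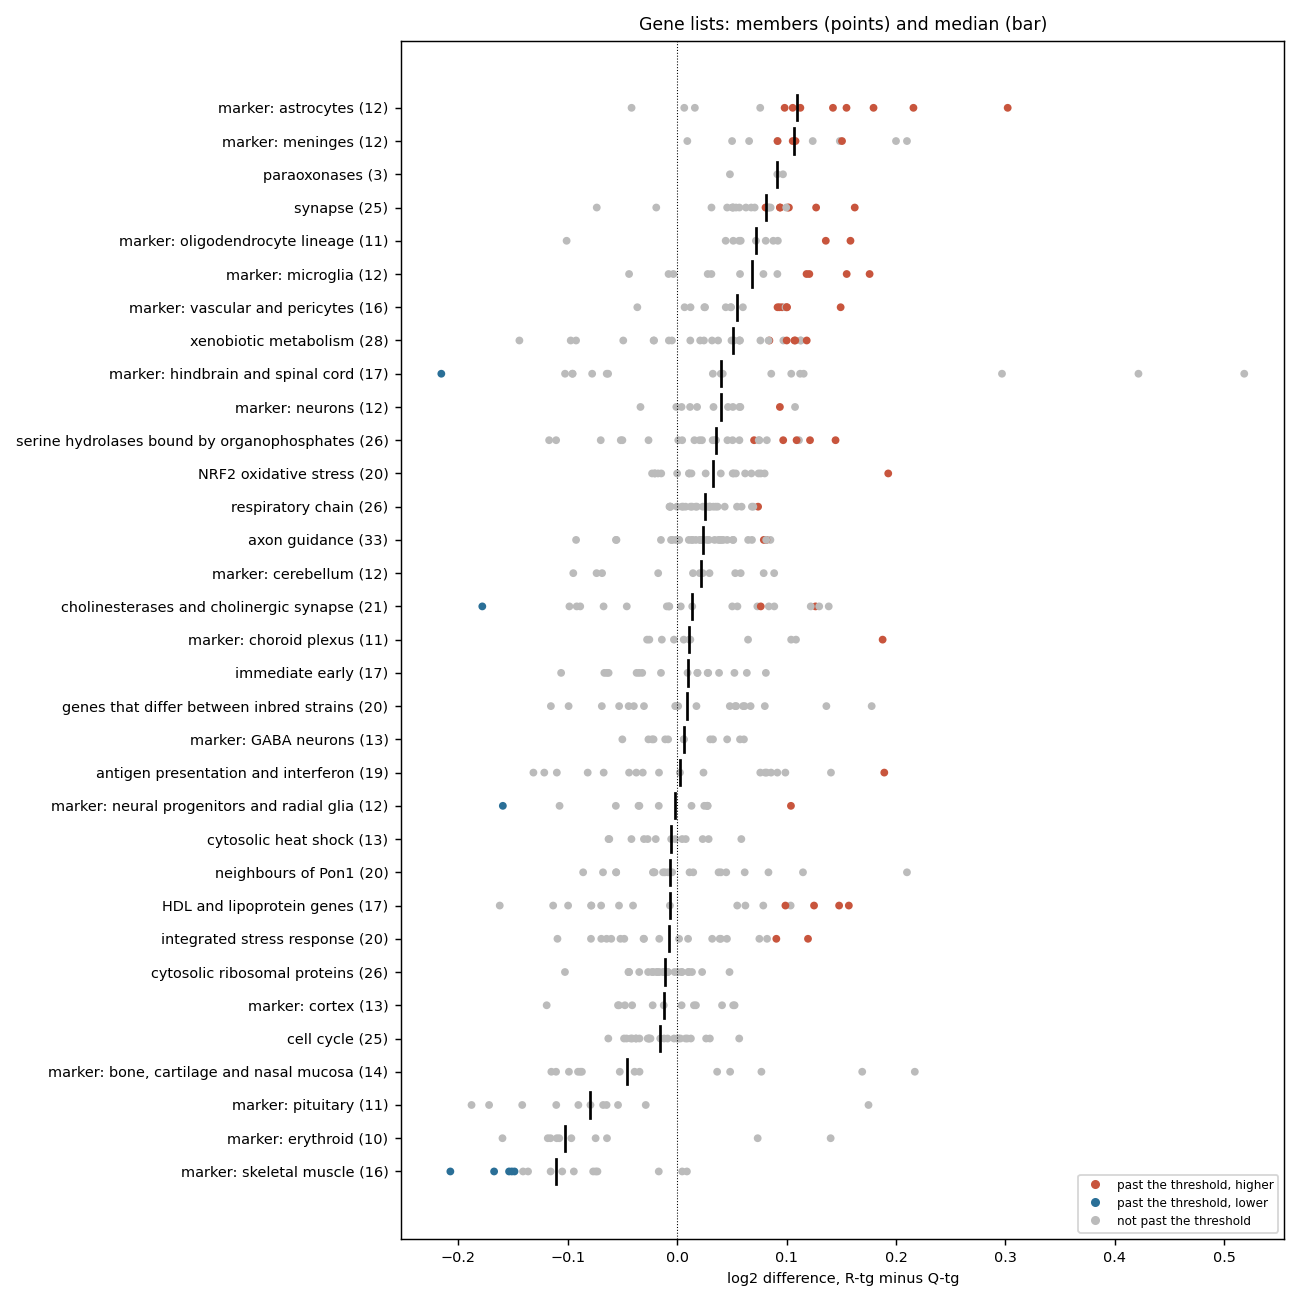
Log2 difference R-tg minus Q-tg of every measured member of 33 gene lists (points) with the list's median (bar), the number measured in brackets, red and blue for members called higher and lower. Astrocyte markers (8 of 12 called) and meninges markers (4 of 12) have the highest medians, and skeletal muscle markers (5 of 16 called lower) the lowest.

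WT arrays at the same doses give each transgenic genotype a reference. The contrasts with WT share the R-tg or Q-tg arrays with the comparison above, and both use the same 15 WT arrays. In the fit of all 12 reassigned groups, limma called 70 of 21789 (0.321%) in R-tg against WT and 100 (0.459%) in Q-tg against WT. Of the 1314 called between R-tg and Q-tg, 1201 (91.4%) had a WT mean between theirs, against 10211 of all 21789. The choice of the 1314 by their difference favours this. Of them, 24 were also called in R-tg against WT and 43 in Q-tg against WT. The genes named next, near WT in only R-tg or only Q-tg, are examples and do not describe the 1314 as a set. Cox20 was near WT in R-tg (-0.01) and above it in Q-tg (0.19, adjusted p = 0.00116). Slc22a23 was near WT in R-tg (0.01) and below it in Q-tg (-0.09, adjusted p = 0.0092). Ccl3 was near WT in Q-tg (-0.06) and above it in R-tg (0.20, adjusted p = 0.0227).

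Against WT, 13 transcript clusters were called in the same direction in both transgenic genotypes, and 0 of them between R-tg and Q-tg. Marchf1 had the largest differences from WT (0.73 in R-tg and 0.66 in Q-tg). Its arrays ran from 7.11 to 9.22 in WT and from 9.09 to 9.38 in KO. Because the WT arrays are shared, such pairs of calls are not independent, and the genes given here were chosen after their values were seen. Entpd4, a nucleotide phosphatase of the Golgi, ran from 9.37 to 9.62 in R-tg, from 9.33 to 9.67 in Q-tg and from 9.54 to 10.19 in WT. KO arrays ran from 9.33 to 9.53, in the range of the transgenic ones. It differed from WT by -0.47 in R-tg (adjusted p = 9.06e-12) and by -0.52 in Q-tg (adjusted p = 1.34e-13), and by 0.05 between them (adjusted p = 0.231). Wdfy1 and Zkscan3 were others, with 0.32 and 0.30 for the first and -0.25 and -0.26 for the second, in R-tg and Q-tg in that order. The amounts were less alike for Rbm11, an RNA-binding protein (0.35 and 0.53), and Spock3, a matrix proteoglycan (0.24 and 0.14), neither of them called between R-tg and Q-tg (adjusted p = 0.197 and 0.0975). In these 2 genes KO lay nearer WT. Rbm11 ran from 7.21 to 7.58 in KO and from 7.23 to 8.05 in WT. Spock3 ran from 8.92 to 9.11 in KO and from 8.72 to 9.25 in WT. The 20 measured genes known to differ between inbred strains, Entpd4 and Wdfy1 among them, had 0 called between R-tg and Q-tg, and at most 2 without single arrays. Called genes lay on every autosome and on X, from 3.74% of the genes of chromosome 17 to 8.42% of those of chromosome 15.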

How the data were processed

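Values were used as deposited. They are log2 signals that the authors made with RMA, with oligo and R 2.15.1 named as tools, per the submitters' processing notes; scan dates are not given in the sources used here. GEO's platform annotation named 1 gene for 21789 of 28858 transcript clusters, more than 1 for 1621 and none for 5448. Tests ran on the 21789. Labels were moved by the inferred order, and the deposited labels served as an alternative. limma 3.58.1 in R 4.3.3 was fitted to the 30 arrays with genotype and dose (factor), and to 6 group means for single doses and the interaction; contrasts with WT used all 60 arrays. Tests were 2-sided, with Benjamini-Hochberg adjustment over the 21789 at 0.05. Arrays correlated at 0.988 to 0.998, and none were identical.

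Named genes are Pon1, Pon2, Pon3, Ache and Bche, the 15 of smallest p in each direction (2 predicted genes passed over), and, of described lists, called members and up to 4 of largest difference, 1 transcript cluster for each gene. A clause naming called genes with a called neighbour within 20 genes was not used, since it covered 1170 genes. A list (34 in all, 568 of 630 entries measured) is described by the brightest transcript cluster of each gene, without a test. Members and lists were chosen with earlier results of these data known. On simulated data for the comparison over doses (50 changed genes of each size among 21789) the fit recovered 22% of differences of 0.1, 74% of 0.2, 98% of 0.4 and 100% of 0.8. The simulated noise was drawn for each gene on its own, without variation shared between genes, so recovery in the real arrays may differ. Alternatives are in the closing section; other background corrections were not run. Replicates are dams, and p-values measure the spread between them.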

Additional observations from a re-analysis of the deposited data

Results flagged for a closer look

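Among the 135 named genes, 49 of 810 values taken by gene and group of 5 arrays (6.05%) stood apart from the other 4 arrays of their group, where chance gives about 1 in 20. Values are log2 signals, with the range of the other 4 arrays in brackets. The array that stood apart most often was R-tg 0.85 replicate 4, with 9 genes, followed by Q-tg 0.85 replicate 3 and R-tg 0.75 replicate 1 with 5 each.

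Q-tg dose 0 replicate 1 had Cstdc6 at 5.24 (5.59 to 5.71) and Gsta4 at 7.95 (8.09 to 8.14). In Q-tg dose 0 replicate 3 the values were Cga at 7.02 (6.40 to 6.57), Gh at 8.84 (6.71 to 6.97), Lrp1 at 10.52 (10.69 to 10.74) and Unc5c at 9.25 (9.45 to 9.47). Q-tg dose 0 replicate 4 showed Eomes at 8.75 (8.48 to 8.52) and Ifitm3 at 8.56 (8.90 to 9.03). Q-tg 0.75 replicate 1 had Gpr17 at 7.98 (7.80 to 7.84). In Q-tg 0.75 replicate 3 the values were Acta1 at 8.15 (7.75 to 7.85) and Kcna2 at 6.99 (7.16 to 7.22). Q-tg 0.75 replicate 4 showed Ache at 8.65 (8.84 to 8.92), Dpp4 at 6.47 (6.64 to 6.69) and Mgll at 8.11 (8.23 to 8.27). Q-tg 0.75 replicate 5 had Csf1r at 7.72 (7.88 to 7.91). On Q-tg 0.85 replicate 1 there was Gh at 9.30 (6.71 to 7.07). On Q-tg 0.85 replicate 2 there was Ces1c at 4.28 (3.98 to 4.06). Q-tg 0.85 replicate 3 had Acta1 at 7.56 (7.85 to 7.92), Adcy1 at 9.95 (9.69 to 9.75), Itih2 at 7.75 (7.56 to 7.60), Kcna2 at 6.75 (6.99 to 7.08) and Rims1 at 10.18 (9.91 to 9.96).

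R-tg dose 0 replicate 1 had Agt at 8.44 (8.04 to 8.16). On R-tg dose 0 replicate 2 there was Ifitm3 at 8.88 (9.09 to 9.15). R-tg dose 0 replicate 4 showed Col1a1 at 10.66 (8.71 to 8.79) and Col1a2 at 10.21 (8.70 to 8.78). R-tg dose 0 replicate 5 had Dnah10 at 6.13 (6.40 to 6.49). In R-tg 0.75 replicate 1 the values were Nefm at 9.26 (9.11 to 9.15), Ogn at 8.23 (7.93 to 8.01), Pdgfrb at 8.53 (8.65 to 8.68), Pon2 at 7.74 (7.60 to 7.64) and Rims1 at 9.92 (10.05 to 10.08). R-tg 0.75 replicate 3 showed Abca1 at 9.33 (9.38 to 9.40) and Dnah10 at 6.38 (6.40 to 6.41). R-tg 0.75 replicate 4 had Eif4e1b at 7.27 (6.91 to 6.99). In R-tg 0.75 replicate 5 the values were Gclc at 9.14 (9.23 to 9.25), Kcna2 at 7.47 (7.31 to 7.35) and Kcnj13 at 8.54 (8.64 to 8.66). R-tg 0.85 replicate 2 showed Aqp1 at 7.73 (7.47 to 7.54) and Ces1c at 3.75 (3.87 to 3.91). R-tg 0.85 replicate 4 had Bche at 7.07 (6.70 to 6.76), Cga at 7.08 (6.45 to 6.63), Chrm3 at 9.03 (8.92 to 8.93), Des at 6.42 (6.31 to 6.34), Gbx1 at 6.55 (6.79 to 6.85), Gh at 10.73 (6.72 to 6.88), Krtap19-3 at 5.06 (5.41 to 5.49), Pon2 at 7.88 (7.50 to 7.59) and Trdn at 6.54 (6.86 to 6.96).

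Growth hormone (Gh) stood apart upward on 3 arrays and Cga, another gene of the pituitary list, on 2 of the same 3. The collagen genes Col1a1 and Col1a2 stood apart on 1 array together. No explanation was tested for any of these values.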

How the results depend on the processing

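The direction of all 1314 calls stayed the same under the inferred order in each alternative run, also without any 1 array or dose. Among bright transcript clusters 1138 of them were tested. The exception was the fit on the 8 arrays whose deposited genotype is the same (1302). Since the calls were chosen on these same arrays, a kept direction was favoured in advance and is a description. The count of calls did not stay the same. It was 1335 with all 60 arrays in the fit, 1198 without dose, 1645 with a trended robust prior, 1688 on 15611 bright transcript clusters and 1125 after quantile normalization. Array weights gave 2833 (1943 higher, 890 lower), all 28858 transcript clusters 2247 (1080 lower, with those of other or no symbol), and centring of arrays 2439 (2022 higher, 82.9% of calls against 70.5% of the 1314). The sex ratio of the pool as a covariate gave 626 lower. The lower quartile as a covariate gave 454 (272 higher, 182 lower), leaving out the 4 extreme arrays 123 (79 higher, 44 lower) and the muscle covariate 27 (17 higher, 10 lower). Of the 1314, 810 were called again after quantile normalization and 279 with the lower quartile as a covariate. The same number was 122 without the 4 extreme arrays and 12 with the muscle covariate. Without dose 0 there were 20 (14 higher, 6 lower), without 0.75 there were 0 (0 higher, 0 lower) and without 0.85 there were 1088. Under the deposited labels there were 0 (0 higher, 0 lower), and for the 2 R-tg and 6 Q-tg arrays whose deposited genotype is the same also 0 (5534 at an unadjusted p below 0.05 by limma). The cause of these moves was not tested.

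Leaving out 1 array gave 639 to 3585 calls, 505 to 2584 of them higher and 134 to 1001 lower, with 57.2% to 79.0% higher. Beyond the arrays named beside the count, the number of lower calls moved by over 1.5 times without Q-tg dose 0 replicate 2 (204) or 5 (231), Q-tg 0.75 replicate 2 (220) or R-tg dose 0 replicate 2 (636) or 4 (221). The single doses gave 0 to 16 at dose 0, 0 to 1 at 0.75 and 0 to 39 at 0.85, and the interaction gave 0 to 0. Dose 0.75 gave 2 with all 60 arrays, 444 with array weights and 1 each with a trended prior, bright transcript clusters or centring. Dose 0.85 gave 2 with a trended prior, 24 with array weights and 3 after quantile normalization, where dose 0 gave 1. In the fits against WT on 30 arrays, R-tg had 9 calls and Q-tg 46. Same-numbered arrays of the genotypes correlated in their deviations at -0.33 to 0.53, over 0.1 in 2 of 15 pairs, and 2 of 15 R-tg arrays correlated best with the Q-tg array of their own number. The samples share only a number, and the replicate block gave 1831 calls, 661 of them lower.

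Of 91 called genes named here, 58 changed sign under the deposited labels, none past the threshold. Their log2 differences there were Ccl3 -0.12, Kcna2 -0.026, Slc13a3 -0.053, Hmcn1 -0.046, Slc7a11 -0.0062, Dock3 -0.00030, Adcy1 -0.020, Slc22a23 -0.015, Aqp4 -0.049, Zbtb34 -0.015, Atp2b2 -0.0091, Ggact -0.013, Cox20 0.0073, Tal1 0.0071, Eif4e1b 0.0052, Rprl2 0.047, Cstdc6 0.085, Zfp971 0.065, H4f16 0.022, Krtap19-3 0.022, Foxe1 0.041, Proser2 0.043, H2bc1 0.033, Ache -0.014, Agt -0.050, Gfap -0.043, Aldoc -0.021, Fcrls -0.075, C1qb -0.044, C1qc -0.0079, Csf1r -0.012, Gpr17 -0.036, Snap25 -0.0094, Neurog2 0.0066, Slc1a3 -0.025, Des 0.057, Shank1 -0.0023, Rims1 -0.00061, Nceh1 -0.0048, Gstm1 -0.017, Apoe -0.032, Scarb1 -0.0050, Sesn2 -0.00022, Chrm3 -0.035, Dpp4 -0.026, Abca1 -0.0024, Fmo1 -0.029, Sult1a1 -0.033, Ifitm3 -0.051, Syp -0.039, Sdha -0.0052, Slc1a2 -0.014, Gja1 -0.012, Slc4a4 -0.011, Slco1c1 -0.018, Vtn -0.026, Myh8 0.0043, Slc22a6 -0.036. Among the arrays of the same deposited genotype Gfap (-0.012), Des (0.028), Sult1a1 (-0.021) changed sign. The number of arrays limits the precision, and dim genes, 28.4% of those tested, lie near the background.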

Other observations

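Genes that the report does not describe were among the calls of large difference. They were chosen after their values were seen. Mrc1, the mannose receptor of perivascular macrophages, ran from 7.77 to 8.06 in R-tg (median 7.93) and from 7.42 to 7.93 in Q-tg (median 7.70) on the log2 scale. All 15 R-tg arrays lay above the Q-tg median and 8 above every Q-tg array, and the difference was 0.23 (SE 0.042, limma adjusted p = 0.00466). Myorg, a glycosidase of astrocytes, ran from 7.62 to 8.20 in R-tg (median 8.00) and from 7.48 to 7.87 in Q-tg (median 7.69), a difference of 0.25 (SE 0.051, limma adjusted p = 0.00682). Folh1, a peptidase that releases glutamate from N-acetylaspartylglutamate, ran from 6.59 to 7.09 in R-tg (median 6.88) and from 6.32 to 6.95 in Q-tg (median 6.60), a difference of 0.23 (SE 0.050, limma adjusted p = 0.0109). Sv2c, a synaptic vesicle protein, ran from 8.28 to 8.95 in R-tg (median 8.77) and from 8.35 to 8.65 in Q-tg (median 8.47). In 11 of 15 R-tg arrays it exceeded every Q-tg array and in 2 it lay below all of them, with a difference of 0.22 (SE 0.056, limma adjusted p = 0.0234). Actc1, an actin of heart and embryonic muscle, ran from 7.33 to 7.82 in R-tg (median 7.72) and from 7.70 to 8.31 in Q-tg (median 7.90). None of the 15 R-tg arrays lay above the Q-tg median (0 of 15), and the difference was -0.24 (SE 0.057, limma adjusted p = 0.0147). Dppa3, a gene of early embryos and germ cells, ran from 4.79 to 5.74 in R-tg (median 5.24) and from 4.94 to 6.07 in Q-tg (median 5.65) and was dim. Its difference was -0.29 (SE 0.089, limma adjusted p = 0.0453).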
